A study of Mus musculus with 8 samples.

Results

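The potassium channel genes of mouse alphaTC1.9 cells were described here, taken as every probe set whose platform gene symbol starts with Kcn. The rule gave 90 probe sets, 1 per symbol, of 22142 tested probe sets. Of these, 89 stood for protein-coding genes and 1 for Kcnq1ot1, a long noncoding RNA transcribed antisense to Kcnq1. The alphaTC1.9 line is a cultured, tumour-derived mouse alpha cell line, and its RNA was hybridised to Clariom S arrays, on which a probe set reads 1 transcript cluster. By the sample labels, 4 arrays came from IDE-KD cells, in which a small interfering RNA was directed against the insulin-degrading enzyme gene Ide, and 4 arrays from control cells of the same line. All cells grew in 16 mM glucose and received no further treatment. Both groups are 1 cell line, the sources used here give neither the kind of control nor the time after knockdown, and the labels call the 4 arrays of each group biological replicates from independent RNA, without saying whether each came from its own culture. The p-values therefore measure the spread between these RNA samples.

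Potassium channels let potassium leave the cell and pull the membrane potential down, so they set how readily an excitable cell fires. In alpha cells the ATP-sensitive channel links glucose metabolism to the membrane potential, voltage-gated channels end each action potential, and G protein-gated inward rectifiers carry inhibition by somatostatin. Two-pore domain (K2P) channels give a steady leak, and calcium-activated channels open when calcium rises during firing.

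The targeted gene was read first. Ide had 7.91, 8.14, 7.92 and 8.05 in IDE-KD cells, against 8.66, 8.62, 8.72 and 8.48 in control cells, on the log2 scale used for every level below. Every IDE-KD array lay below every control array, and every IDE-KD value stayed above the 95th percentile of the intron control rows described below. The log2 difference was -0.62 (SE 0.12, 1.53-fold lower), rank 3 of 22142 by unadjusted p, and the exact permutation test (two-sided) gave p = 0.0286. Over all tested probe sets limma's adjusted p for Ide was 1.00, and between 0.114 and 1.00 under the alternative settings, so the targeted gene itself did not pass. The glucagon gene Gcg, which defines alpha cells, averaged 12.06 ± 0.10 in IDE-KD cells and 12.06 ± 0.07 in control cells (SD, n = 4 each). The alpha cell genes Irx1, Irx2 and Ttr read 6.37, 8.69 and 5.96, so all 4 measured alpha cell markers exceeded the median intron control row, and Gcg and Irx2 its 95th percentile. Tested probe sets had array medians from 5.10 to 5.17. IDE-KD arrays 1 and 3 stood apart from the other 6 arrays in SD over the tested probe sets, at 2.16 and 2.13, against 2.20 to 2.25 elsewhere. They also had the lowest means of the 8 arrays over both the 1324 exon control rows (6.95 and 6.92) and the 5222 intron control rows (4.20 on each). The intron means of IDE-KD arrays 2 and 4 were 4.28 and 4.25, against 4.28 to 4.38 on control arrays, so low intron means were not confined to arrays 1 and 3. The array weights of limma, lower for noisier arrays, were 0.79, 0.744, 0.752 and 1.018 on IDE-KD arrays 1, 2, 3 and 4. They ran from 0.877 to 1.624 on control arrays. By weight, IDE-KD array 2 was thus the lowest, and arrays 1 and 3 did not stand apart from it. Results that rest on IDE-KD arrays 1 and 3 are given with and without them. This pair was chosen after seeing the data, and only IDE-KD arrays 2 and 4 remain without it.

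Most potassium channel genes read within the range of probes against introns, sequence that mature mRNA lacks. The intron control rows of the array gave 2 lines for this comparison, their median at 4.16 and their 95th percentile at 6.87, which is above the highest of 23 antigenomic background rows, 6.44. Of the 90 probe sets, 7 (7.78%) had a mean over the 8 arrays above the upper line, against 26.1% of all tested probe sets. A further 33 lay between the lines, and 50 (55.6%) lay at or below the lower line. The lower line was exceeded by 44.4% of the Kcn probe sets and by 61.4% of all tested ones. Probe sets differ in how strongly they bind, so each level was set against the control rows and not against another gene, and a level under the upper line does not show that a transcript is absent.

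**Figure D1:**
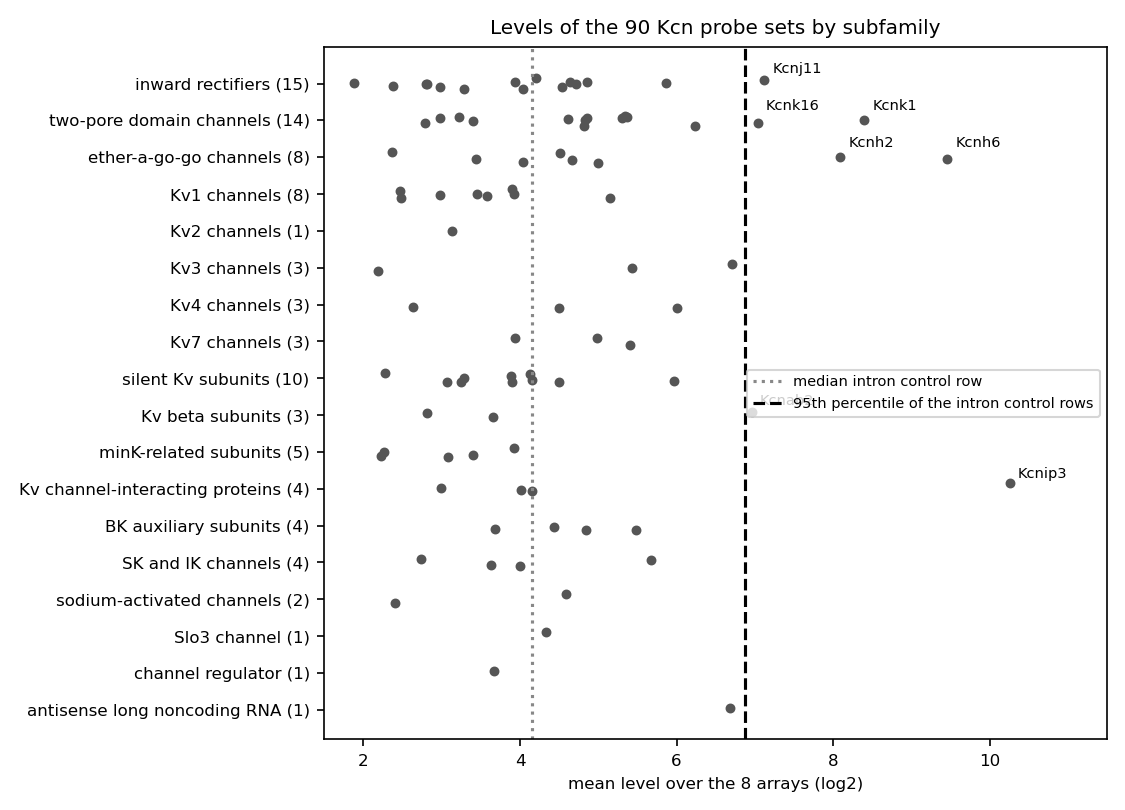
Mean log2 level over the 8 arrays (horizontal axis) of each Kcn probe set, 1 point each, by subfamily (vertical axis, number of probe sets in parentheses). The dotted line is the median intron control row (4.16) and the dashed line the 95th percentile of the intron control rows (6.87); the 7 named points lie above the dashed line.

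The 7 genes above the upper line came from 5 subfamilies. They were Kcnj11, the pore-forming subunit of the ATP-sensitive channel; Kcnk1 and Kcnk16, both K2P leak channels; Kcnh2 and Kcnh6, voltage-gated channels of the ERG group; Kcnip3, a calcium-binding protein that associates with Kv4 channels and also acts as a transcriptional repressor; and Kcnab2, a cytoplasmic Kv beta subunit. The lowest of them was Kcnab2 at 6.96, and the first gene below the line was Kcnc4, a Kv3 channel, at 6.71. Leaving out any 1 array kept the count at 7. On single arrays, against the 95th percentile of each array's own intron rows, it ran from 5 to 8. It was 9 with the 90th percentile of the intron rows as the line, 2 with the 99th (Kcnh6 and Kcnip3 at 9.46 and 10.25) and 34 with the median of all array control rows.

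By subfamily, 1 of 15 inward rectifiers, 2 of 14 K2P channels and 2 of 8 ether-a-go-go channels exceeded the upper line. None of the 8 Kv1, 1 Kv2, 3 Kv3, 3 Kv4 and 3 Kv7 channels did so, and the same held for 10 silent Kv subunits, which form channels only together with Kv2 subunits. Of 12 auxiliary subunits of voltage-gated channels, Kcnip3 and Kcnab2 exceeded it and the other 10 lay at or below the lower line, including all 5 minK-related Kcne genes. Of 11 calcium- and sodium-activated channel genes, 0 exceeded the upper line and 6 the lower one. Kcnn1, an SK channel gene, stood highest among these against the intron rows, above 81.3% of them. Kcnq1ot1 read 6.69, above 93.6% of the intron rows, while Kcnq1, the Kv7 channel gene whose locus it shares, read 3.93, above 45.1% of them.

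Several genes of the family lie side by side in the genome. Among adjacent protein-coding genes of the mouse, 10 pairs were both measured Kcn genes, and in 5 pairs both members lay at or below the lower line. In the 1 pair that the upper line divided, Kcnk16 stood above 95.8% of the intron rows and its neighbour Kcnk5, an alkaline-activated K2P channel, above 20.3%. Kcnj11 lies beside Abcc8, the sulfonylurea receptor subunit of the same ATP-sensitive channel, and both exceeded the upper line, at 7.12 and 8.28.

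Promoter sequence was set beside these levels because genes with CpG-rich promoters are often broadly active. RefSeq promoter windows of 300 bases (250 before and 50 after the start, build GRCm38.p6) were found for 69 of the 90 genes and for 15683 named genes in all, and the CpG-richest window of a gene was used. With at least 16 CpG, the median over all named genes, 4 of 33 Kcn genes (12.1%) exceeded the upper line, against 3441 of 7863 of all named genes (43.8%). Below 16 CpG the shares were 2 of 36 (5.56%) for Kcn genes and 890 of 7820 (11.4%) for all. Kcn genes were thus above the line less often than all named genes in both CpG classes, as a description without a test. With the CpG-poorest window of each gene, the Kcn shares were 8.33% of 24 CpG-rich and 8.89% of 45 CpG-poor genes, against 44.2% and 14.8% of all named genes.

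The windows below show the extremes among genes with 1 window, with each CpG in capitals. Kcnh6 had the most CpG (24) of the genes above the upper line, at chr11:106007898-106008197 on the plus strand. Kcnk16 had the fewest (2) of those genes, at chr14:20269220-20269519 on the minus strand. Kcng3, a silent Kv subunit gene at 3.25, had the most (49) of the genes at or below the lower line, at chr17:83631846-83632145 on the minus strand.
Kcnh6: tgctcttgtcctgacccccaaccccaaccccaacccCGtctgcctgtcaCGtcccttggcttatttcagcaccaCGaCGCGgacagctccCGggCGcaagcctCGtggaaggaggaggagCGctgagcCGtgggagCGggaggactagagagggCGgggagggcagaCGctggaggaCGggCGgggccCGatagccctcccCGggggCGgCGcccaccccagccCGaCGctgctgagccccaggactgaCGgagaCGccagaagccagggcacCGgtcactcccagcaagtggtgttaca
Kcnk16: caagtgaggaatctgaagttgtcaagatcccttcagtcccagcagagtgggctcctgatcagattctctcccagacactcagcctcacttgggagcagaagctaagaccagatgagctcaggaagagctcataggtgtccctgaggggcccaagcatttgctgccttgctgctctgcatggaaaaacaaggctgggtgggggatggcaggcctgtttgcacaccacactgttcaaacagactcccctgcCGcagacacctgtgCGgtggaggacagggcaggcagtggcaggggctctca
Kcng3: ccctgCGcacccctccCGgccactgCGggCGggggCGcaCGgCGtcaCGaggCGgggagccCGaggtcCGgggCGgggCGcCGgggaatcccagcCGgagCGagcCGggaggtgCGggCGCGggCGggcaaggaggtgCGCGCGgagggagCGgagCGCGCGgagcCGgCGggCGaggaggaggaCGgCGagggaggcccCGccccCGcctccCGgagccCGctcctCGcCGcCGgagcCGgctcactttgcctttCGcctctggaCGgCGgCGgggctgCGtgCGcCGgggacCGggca

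**Figure D2:**
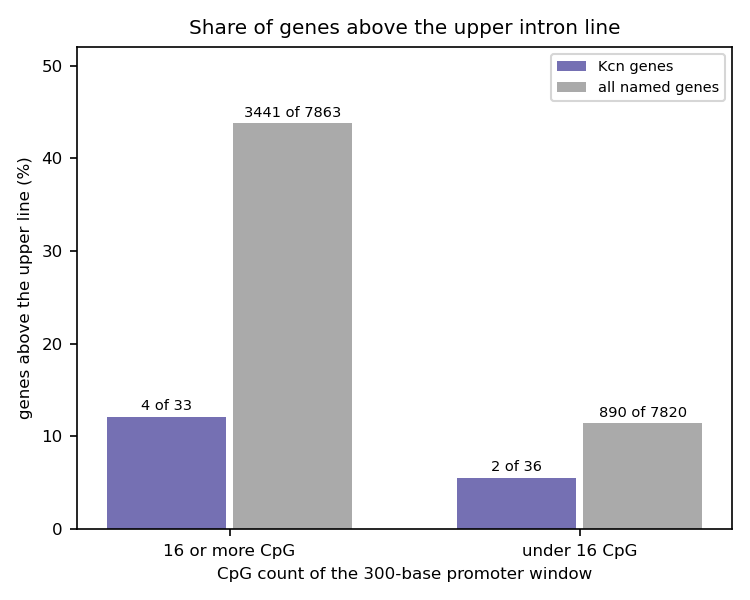
Share of genes (vertical axis, percent) whose mean level exceeded the 95th percentile of the intron control rows, by the CpG count of the 300-base RefSeq promoter window (horizontal axis). Bars are Kcn genes and all named genes, with counts above each bar; among genes with 16 or more CpG the bars stand at 12.1% and 43.8%.

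The single comparison of the design asks which transcripts differ between IDE-KD and control cells. For potassium channel genes, 0 of 90 passed limma's test at an adjusted p under 0.05 over all 22142 tested probe sets, where 0.00% of all probe sets passed. The smallest adjusted p in the family was 1.00. At an unadjusted p under 0.05 in limma there were 4 members (4.44%), all higher in IDE-KD cells, against 4.59% of all tested probe sets (2.69% higher and 1.91% lower). The groups did not overlap at 4 members, all higher in IDE-KD cells, against 2.80% of all probe sets (1.39% higher and 1.41% lower). The one-sided split did not hold without IDE-KD arrays 1 and 3, where 14 members did not overlap (6 higher and 8 lower; 16.9% of all probe sets) and 9 had an unadjusted p under 0.05 (4 higher and 5 lower; 7.9% of all). Without IDE-KD array 1 alone, 6 did not overlap (4 higher and 2 lower; 5.75% of all). With array medians subtracted or quantile normalization applied again, 3 did not overlap, all higher (2.82% and 2.83% of all). The count of members without overlap was 8, all higher, without IDE-KD array 2. It was 7 without IDE-KD array 4 or control array 2. In these 3 settings 6.59%, 5.87% and 5.35% of all probe sets did not overlap. The count at an unadjusted p under 0.05 was 7, all higher, without IDE-KD array 2 (6.56% of all). It was 7 without IDE-KD array 4 (5.56% of all). Leaving out IDE-KD array 3 gave 4 members without overlap (4.95% of all), all higher. It gave 6 with an unadjusted p under 0.05 in limma (4.12% of all), also all higher. A 2-fold change lay outside the 95% confidence interval of 89 of 90 members (98.9%, against 99.7% of all) and a 1.5-fold change outside that of 70 (77.8%, against 83.6%). The member whose interval reached past 2-fold was Kcnh1.

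**Figure D3:**
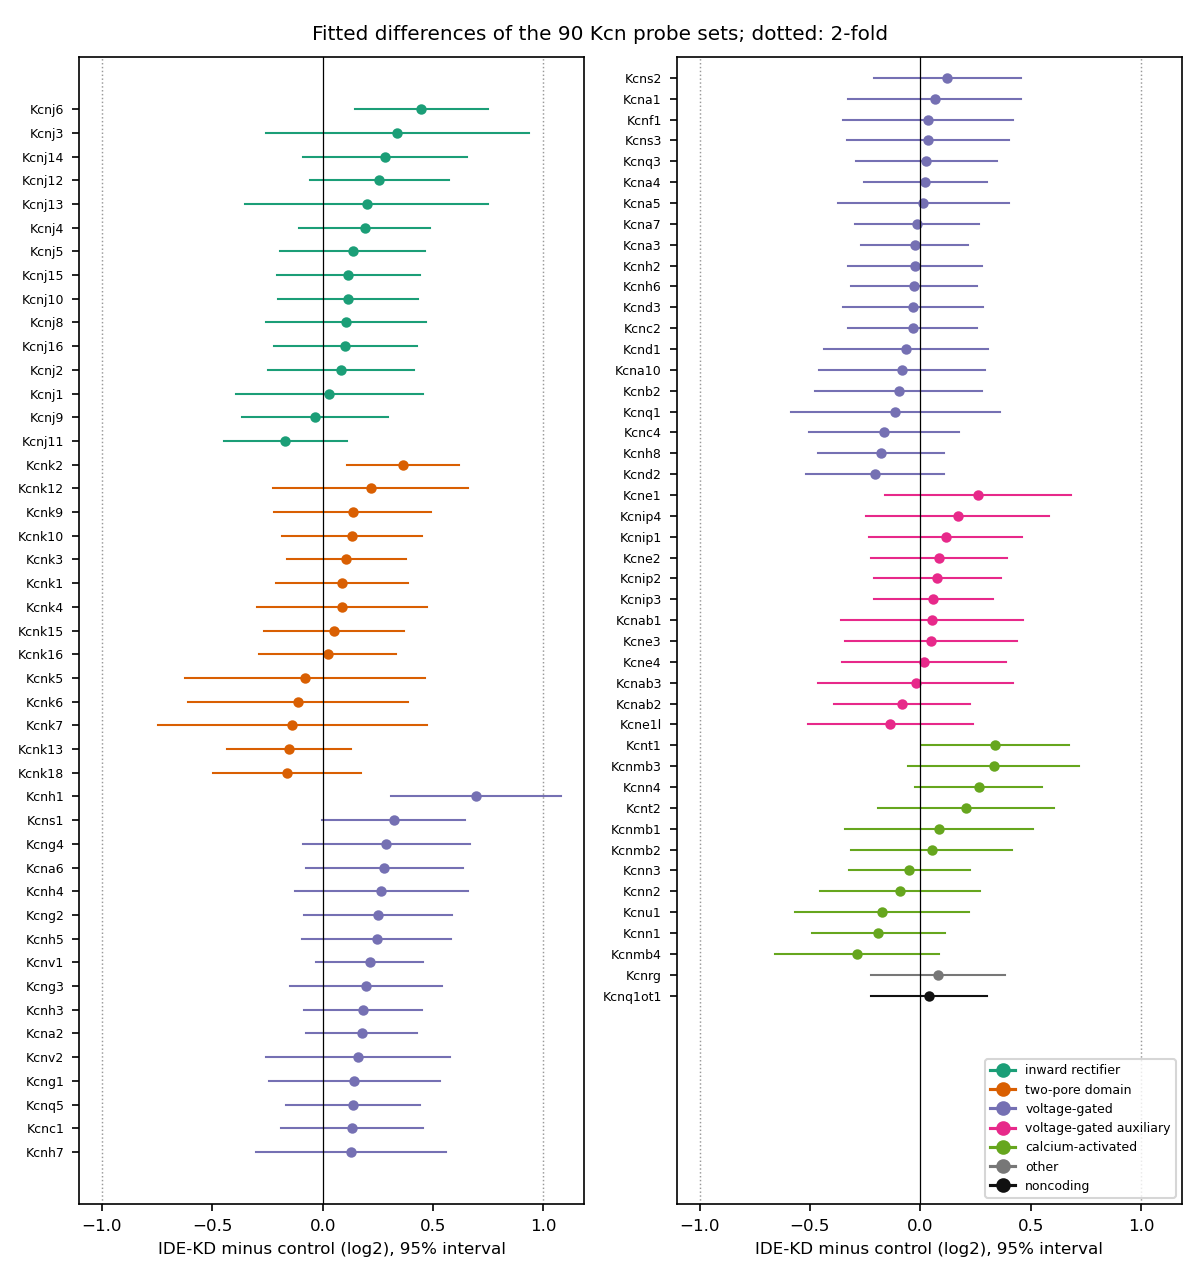
Fitted log2 difference, IDE-KD minus control, with its 95% confidence interval (horizontal axis) for each of the 90 Kcn probe sets (vertical axis), coloured by class; dotted lines mark a 2-fold change. Kcnh1 has the highest value, 0.70, and Kcnmb4 the lowest, -0.29.

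The ATP-sensitive channel is closed by ATP and in islet cells is built from Kcnj11 and Abcc8 subunits. Kcnj11 (probe set TC0700003030.mm.2) read 7.25, 6.78, 7.06 and 7.06 in IDE-KD cells, against 7.23, 7.34, 7.15 and 7.10 in control cells. The groups overlapped, with IDE-KD array 2 the lowest of all 8. The log2 difference was -0.17 (SE 0.13, 95% confidence interval -0.45 to 0.11, exact two-sided permutation p = 0.171), and -0.083 without IDE-KD array 2. It was -0.28 without IDE-KD arrays 1 and 3, where that of Abcc8 was -0.27. Abcc8 read 8.33, 8.13, 8.21 and 8.07 in IDE-KD cells, against 8.22, 8.37, 8.47 and 8.42 in control cells, and 1 IDE-KD array lay above the lowest control array. Its difference was -0.18 (SE 0.12, interval -0.44 to 0.07, exact two-sided permutation p = 0.0571). Kcnj8, the ATP-sensitive subunit of vascular muscle, read 4.59 ± 0.33 in IDE-KD cells and 4.48 ± 0.19 in control cells (SD, n = 4 each).

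G protein-gated inward rectifiers, called GIRK channels, open when G protein beta-gamma subunits are released by receptors such as those for somatostatin. Kcnj6, a GIRK subunit, read 4.97, 5.07, 4.69 and 4.69 in IDE-KD cells, against 4.68, 4.25, 4.37 and 4.34 in control cells. The groups did not overlap in the deposited values, although control array 1 read close to IDE-KD arrays 3 and 4. They overlapped once array medians were subtracted. The log2 difference was 0.45 (SE 0.14, 95% confidence interval 0.14 to 0.75, 1.36-fold higher), with an unadjusted p of 0.00718 in limma, rank 133 of 22142, and an adjusted p of 1.00. Its exact two-sided permutation p of 0.0286 is the smallest that 4 against 4 arrays allow. The other GIRK subunits overlapped between groups. Kcnj5 averaged 4.79 ± 0.23 in IDE-KD cells and 4.65 ± 0.22 in control cells, Kcnj3 averaged 4.38 ± 0.64 in IDE-KD cells and 4.04 ± 0.37 in control cells, and Kcnj9 averaged 4.84 ± 0.21 in IDE-KD cells and 4.88 ± 0.25 in control cells (SD, n = 4 each). Without IDE-KD arrays 1 and 3, which had the lowest SDs, the difference of Kcnj6 was 0.47, that of Kcnj5 turned to -0.03 and that of Kcnj3 was 0.83. All 4 GIRK genes lay between the lines.

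The remaining inward rectifiers set the resting potential or move potassium across epithelia. Kcnj12, a strong rectifier, averaged 4.17 ± 0.20 in IDE-KD cells and 3.91 ± 0.21 in control cells (SD, n = 4 each), a difference of 0.26 (SE 0.15). Over all 15 inward rectifiers, 13 fitted differences were above 0 and 2, Kcnj11 and Kcnj9, below it. The median was 0.12, with a range from -0.17 to 0.45, and over all tested probe sets 52.1% of differences were above 0. The 13 genes above 0 all lay under the upper line. Leaving out IDE-KD arrays 1 and 3 gave 8 of the 15 above 0.

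Among K2P channels, Kcnk2, a channel gated by stretch, lipids and heat, read 4.87, 5.01, 5.20 and 4.96 in IDE-KD cells, against 4.56, 4.66, 4.63 and 4.72 in control cells. Every IDE-KD array lay above every control array. The log2 difference was 0.36 (SE 0.12, interval 0.11 to 0.62, 1.29-fold higher), with an unadjusted p of 0.00859 in limma, rank 159 of 22142, an adjusted p of 1.00 and an exact two-sided permutation p of 0.0286. Its level lay above 65.0% of the intron rows, and the difference was 0.34 without IDE-KD arrays 1 and 3.

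The K2P channels above the upper line did not share that pattern. Kcnk16, a leak channel of the pancreas, read 7.34, 7.01, 6.87 and 6.97 in IDE-KD cells, against 6.83, 7.29, 6.94 and 7.03 in control cells. The groups overlapped throughout (difference 0.02, SE 0.14, interval -0.29 to 0.33). Kcnk1 averaged 8.44 ± 0.21 in IDE-KD cells and 8.35 ± 0.15 in control cells (SD, n = 4 each), a difference of 0.09 (SE 0.14). Kcnk3, an acid-sensitive leak channel found in islet cells, averaged 6.29 ± 0.19 in IDE-KD cells and 6.19 ± 0.06 in control cells (SD, n = 4 each), a difference of 0.11 (SE 0.13). Of the 14 K2P genes, 9 differences were above 0 and 5 below, with a median of 0.07. Leaving out IDE-KD arrays 1 and 3 gave 4 above and 10 below, with differences of 0.27 for Kcnk1, -0.04 for Kcnk16 and -0.01 for Kcnk3. The difference of Kcnk1 was 0.02 without IDE-KD array 2.

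The ether-a-go-go channels held the largest fitted difference of the family. Kcnh1, which encodes the founding voltage-gated channel of this group and is best known from brain and tumour cells, read 4.91, 5.54, 5.14 and 5.81 in IDE-KD cells, against 4.48, 4.69, 4.72 and 4.72 in control cells. Every IDE-KD array lay above every control array, and the IDE-KD arrays spread more, with SDs of 0.40 in IDE-KD cells and 0.12 in control cells. The log2 difference was 0.70 (SE 0.18, 95% confidence interval 0.31 to 1.08, 1.62-fold higher), with an unadjusted p of 0.00189 in limma, rank 37 of 22142, an adjusted p of 1.00 and an exact two-sided permutation p of 0.0286. IDE-KD arrays 1 and 3 held its lowest IDE-KD values, and without them the difference was 1.02, with a limma adjusted p of 0.543, against 0.731 to 1.00 under the other alternatives. The mean level of 5.001 lay above 68.4% of the intron rows.

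**Figure D4:**
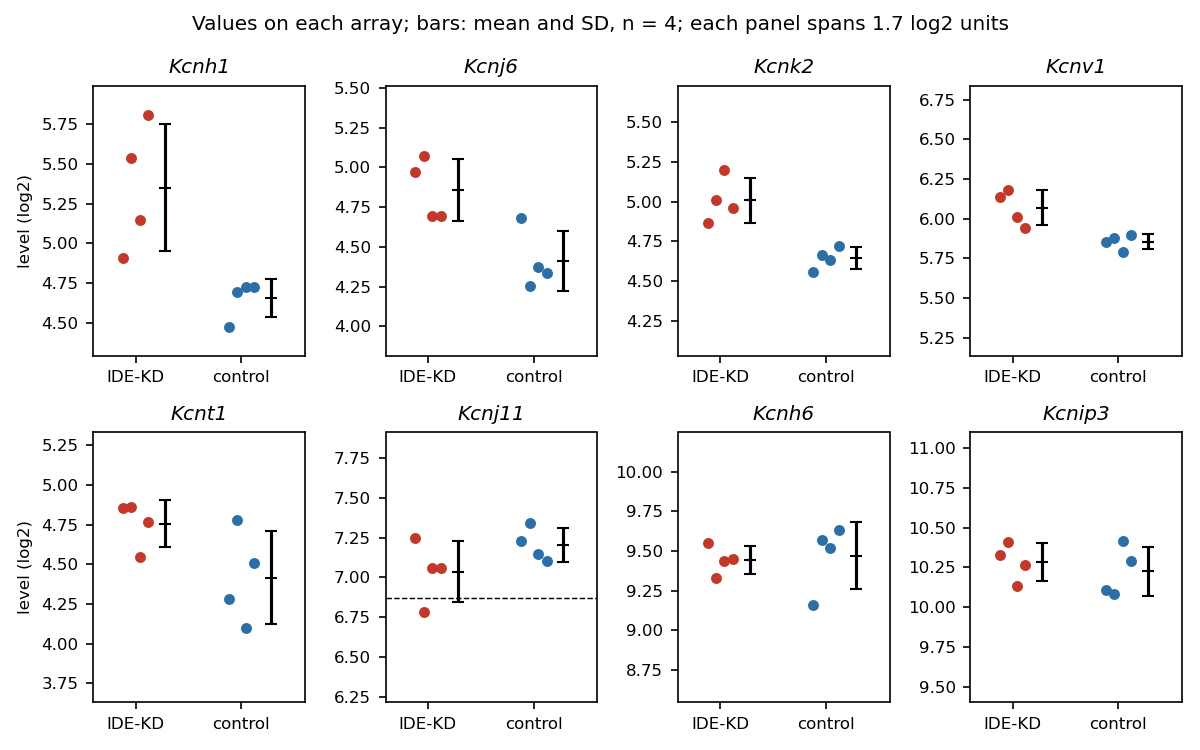
Log2 level (vertical axis) on each array, IDE-KD on the left and control on the right of each panel, with mean and SD (n = 4) beside the points, for 8 potassium channel genes. The dashed line in the Kcnj11 panel is the 95th percentile of the intron control rows; in the Kcnh1, Kcnj6, Kcnk2 and Kcnv1 panels every IDE-KD point lies above every control point.

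The ERG channels carry a slow voltage-gated current. Kcnh6 read 9.55, 9.33, 9.44 and 9.45 in IDE-KD cells, against 9.16, 9.57, 9.52 and 9.63 in control cells, with control array 1 the lowest of all 8. The difference was -0.03 (SE 0.13, interval -0.31 to 0.26). Kcnh2 averaged 8.08 ± 0.22 in IDE-KD cells and 8.11 ± 0.16 in control cells (SD, n = 4 each), with an interval of -0.33 to 0.28. Both intervals excluded a 1.5-fold change in either direction.

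Of the silent Kv subunits, all 10 had a fitted difference above 0, from 0.03 to 0.32 with a median of 0.18, and 0 of them passed the test. All 10 lay under the upper line and 8 at or below the lower one, a level at which 61.6% of all probe sets had a difference above 0. Of the 10, 6 were above 0 without IDE-KD arrays 1 and 3, with a median of 0.08. Kcnv1 read 6.14, 6.18, 6.01 and 5.94 in IDE-KD cells, against 5.85, 5.88, 5.79 and 5.90 in control cells. The groups did not overlap, but the limma interval of its difference, -0.03 to 0.46, included 0 (difference 0.21, SE 0.11). Kcns1 averaged 4.04 ± 0.31 in IDE-KD cells and 3.72 ± 0.05 in control cells (SD, n = 4 each), and its difference of 0.32 (SE 0.15) was 0.19 without IDE-KD array 1 and 0.09 without IDE-KD arrays 1 and 3, while that of Kcnv1 was 0.21 without both.

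The other voltage-gated channels had differences in both directions, with 5 of 8 Kv1, 1 of 3 Kv3, 2 of 3 Kv7 and 0 of 1 Kv2 genes above 0. Without IDE-KD arrays 1 and 3 these counts were 3 of 8, 0 of 3, 2 of 3 and 0 of 1. All 3 Kv4 genes, which carry fast A-type currents, had differences below 0, the lowest -0.21 (2 of 3 without IDE-KD arrays 1 and 3). Kcnd3 averaged 4.48 ± 0.09 in IDE-KD cells and 4.51 ± 0.28 in control cells (SD, n = 4 each). Kcnc4 averaged 6.63 ± 0.23 in IDE-KD cells and 6.79 ± 0.25 in control cells (SD, n = 4 each), a difference of -0.16 that was -0.07 without IDE-KD array 3. Kcnq1 averaged 3.88 ± 0.45 in IDE-KD cells and 3.99 ± 0.33 in control cells (SD, n = 4 each), and Kcna6, a Kv1 channel, had a difference of 0.28 (SE 0.16) at a level above 13.6% of the intron rows. The difference of Kcna6 was 0.17 without IDE-KD array 3 and 0.14 without IDE-KD arrays 1 and 3, and that of Kcnq1 was -0.49 without both.

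Among auxiliary subunits, Kcnip3 read 10.33, 10.41, 10.13 and 10.26 in IDE-KD cells, against 10.11, 10.09, 10.41 and 10.29 in control cells. The groups overlapped (difference 0.06, SE 0.12, interval -0.21 to 0.33). Kcnab2 averaged 6.92 ± 0.21 in IDE-KD cells and 7.003 ± 0.18 in control cells (SD, n = 4 each). Of the 12 auxiliary genes, 9 differences were above 0 and 3 below, with a median of 0.06, against 6 above and 6 below without IDE-KD arrays 1 and 3.

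Among calcium- and sodium-activated channels, Kcnt1, a sodium-activated channel, read 4.85, 4.86, 4.54 and 4.76 in IDE-KD cells, against 4.28, 4.78, 4.10 and 4.51 in control cells. Control array 2 lay within the IDE-KD range. The difference was 0.34 (SE 0.15) with an unadjusted p of 0.0464 in limma and an exact two-sided permutation p of 0.0857. Kcnmb3, an auxiliary subunit of the large-conductance (BK) channel, had a difference of 0.33 (SE 0.18) that was 0.03 without IDE-KD arrays 1 and 3, and Kcnn4, the intermediate-conductance channel, one of 0.27 (SE 0.13). Kcnmb4, another BK auxiliary subunit, had the lowest value of the family, -0.29 (SE 0.17), with both group ranges overlapping. Over the 11 genes, 6 differences were above 0 and 5 below, against 5 above and 6 below without IDE-KD arrays 1 and 3. Outside these classes, the long noncoding RNA Kcnq1ot1 averaged 6.71 ± 0.16 in IDE-KD cells and 6.67 ± 0.07 in control cells, and the channel regulator gene Kcnrg averaged 3.70 ± 0.25 in IDE-KD cells and 3.62 ± 0.10 in control cells (SD, n = 4 each).

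Over the family, 62 fitted differences were above 0 and 28 below, or 68.9% against 52.1% of all tested probe sets, and the median was 0.08 against 0.0074. The split differed by level and by array. Of the 7 members above the upper line, 3 were above 0 (40.1% of all probe sets at that level), with medians of -0.03 for members and for all. At or below the lower line 36 of 50 members were above 0 (61.6% of all), with medians of 0.08 for members and 0.05 for all. Between the lines 23 of 33 were above 0 (50.5% of all), with medians of 0.11 for members and 0.0015 for all. Relative to the control mean, the 83 dimmer members deviated on average by 0.17, -0.01, 0.19 and 0.01 on IDE-KD arrays 1, 2, 3 and 4, against 0.08, -0.06, 0.01 and -0.02 on control arrays 1, 2, 3 and 4. The shift thus lay on IDE-KD arrays 1 and 3, which also had the lowest SDs and the lowest exon and intron control means. In the antigenomic background rows IDE-KD array 1 had the highest mean, 3.55. IDE-KD array 3, at 3.39, lay within the range of the others, 3.35 to 3.44. Without these 2 arrays the median over the 90 members was -0.03 and 39 differences were above 0. The median over all tested probe sets was then 0.005. This pair was chosen after seeing the data and had the highest mean deviations over the 90 members, 0.165 and 0.164. A lower member median without the pair therefore followed from the choice and is no separate result. The median was 0.04 without IDE-KD array 1, without IDE-KD array 3 or without control array 2. The part that the arrays' SD and control rows had in each gene's value was not tested.

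**Figure D5:**
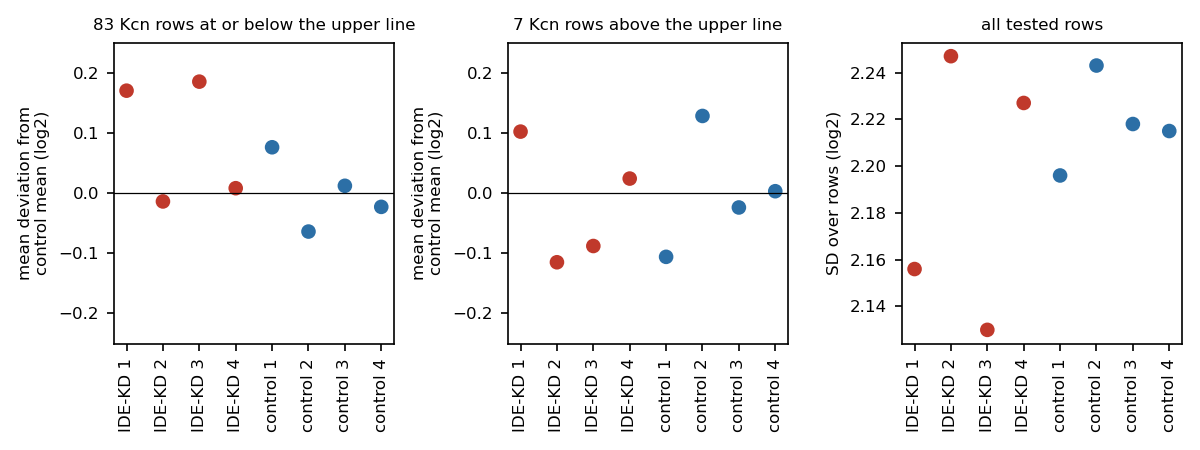
Mean deviation of each array from the control mean (vertical axis, log2) over the 83 Kcn probe sets at or below the 95th percentile intron line (left) and the 7 above it (middle), and the SD over all tested probe sets (right), 1 point per array. IDE-KD arrays 1 and 3 have the highest points on the left, 0.17 and 0.19, and the lowest SDs on the right, 2.16 and 2.13.

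Spread between replicates was somewhat larger for the family than for all probe sets at each level. The median within-group SD of the 90 members was 0.23 against 0.21 over all tested probe sets. It was 0.19 for the 7 members above the upper line against 0.15 for all probe sets at that level. Between the lines the medians were 0.229 and 0.222, and at or below the lower line 0.27 and 0.24. Correlations of the 90 levels between arrays ran from 0.967 to 0.981 between groups and from 0.964 to 0.984 within groups.

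Genes that work with potassium channels but carry other symbols gave 0 passing members in 4 lists. Of 22 measured channel partners, 6 differences were above 0 and 16 below (median -0.08), against 52.1% of all probe sets above 0. Of the 22, 12 lay above the upper line, a level at which 40.1% of all were above 0. Lrrc26, a BK auxiliary subunit above 43.4% of the intron rows, was at -0.34 (SE 0.15) and Lrrc52, a related subunit, at 0.36 (SE 0.16). Amigo1, above the upper line at 7.14, was at 0.30, and Lrrc38, with a level of 3.05, at 0.29. Each of these partners had an unadjusted p under 0.05 in limma, as did 4.59% of all probe sets. The groups did not overlap at 1 of the 22, Nedd4l, lower at -0.11 (SE 0.11), against 2.80% of all probe sets. Of 28 measured genes of G protein signalling to GIRK channels, 16 were above 0 and 12 below (median 0.03). The groups did not overlap at 3 of the 28, against 2.80% of all probe sets: Sstr2 and Rgs4 were higher, and Gnb5, a G protein beta subunit gene, was lower at -0.13 (SE 0.11). Gng7, a G protein gamma subunit gene, had the largest difference of the list, -0.56 (SE 0.22, unadjusted p of 0.0239 in limma), with overlapping groups and a level at or below the lower line, and it was -0.81 without IDE-KD arrays 1 and 3. Without IDE-KD arrays 1 and 3 the splits were 8 above and 14 below for the partners and 18 above and 10 below for the signalling genes. Sstr2, a somatostatin receptor gene, read 6.92, 6.998, 6.91 and 7.08 in IDE-KD cells, against 6.54, 6.83, 6.64 and 6.38 in control cells. Rgs4, which speeds G protein deactivation, read 9.85, 9.90, 9.90 and 9.81 in IDE-KD cells, against 9.56, 9.39, 9.67 and 9.52 in control cells. In both genes every IDE-KD array lay above every control array, with differences of 0.38 (SE 0.13) for Sstr2 and 0.33 (SE 0.11) for Rgs4, limma adjusted p-values of 1.00 and exact two-sided permutation p-values of 0.0286. The differences without IDE-KD arrays 1 and 3 were 0.44 for Sstr2 and 0.32 for Rgs4.

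Of 20 measured potassium pumps and cotransporters, 13 differences were above 0 and 7 below (median 0.06), with the potassium-chloride cotransporter genes Slc12a4 at -0.23 (SE 0.13) and Slc12a5 at 0.28 (SE 0.16). The groups did not overlap at 1 of the 20, Wnk1, lower at -0.19 (SE 0.11), against 2.80% of all probe sets. Of 12 measured HCN, CNG and related cation channels, 7 were above 0 and 5 below (median 0.02), with Hcn2, a pacemaker channel gene, at -0.31 (SE 0.15) and Cnga1 at 0.19 (SE 0.14). Without IDE-KD array 1, Slc12a5 was at 0.16 and Cnga1 at 0.09. Cnga1 lay above 8.3% of the intron rows. Without IDE-KD arrays 1 and 3, 11 of 20 and 2 of 12 differences were above 0.

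Markers of other cells that use many potassium channels were read beside these results. Of 4 neuron markers, 3 exceeded the upper line, among them Snap25 and Syn1, which endocrine cells also use, while Rbfox3 did not. Their mean level ran from 7.11 to 7.37 over IDE-KD arrays and from 7.14 to 7.41 over control arrays. Of 4 muscle markers, 0 exceeded the upper line, with mean levels of 3.58 to 4.12 over IDE-KD arrays and 3.60 to 3.90 over control arrays. Ckm and Myh6 had differences of 0.26 (SE 0.21) and 0.20 (SE 0.17), and of -0.11 and 0.05 without IDE-KD arrays 1 and 3. Of 8 measured beta cell markers, 1 exceeded the upper line, G6pc2 at 8.33. The list had mean levels of 4.69 to 4.81 over IDE-KD arrays and 4.64 to 4.80 over control arrays. Nkx6-1 read 6.64, above 93.3% of the intron rows. Its difference was -0.30 (SE 0.14, unadjusted p of 0.0484 in limma), and -0.38 without IDE-KD arrays 1 and 3. Pdx1 had a difference of 0.18 (SE 0.14), and 0.03 without both arrays. Of delta, PP and epsilon cell, fibroblast, and immune, endothelial and exocrine markers, 0 of 4, 0 of 4 and 0 of 7 measured exceeded the upper line, and all 15 had fitted differences above 0, of which 0 passed the test. Among all probe sets, 61.6% of those at or below the lower line and 50.5% of those between the lines were above 0. The T cell gene Cd3e averaged 3.36 ± 0.11 in IDE-KD cells and 2.92 ± 0.14 in control cells (SD, n = 4 each). It was the 1 gene of the 7 in its list without overlap between groups, against 2.80% of all probe sets. The difference of Cd3e was 0.44 (SE 0.12, unadjusted p of 0.00302 in limma, rank 61 of 22142, adjusted p of 1.00), and 0.38 without IDE-KD arrays 1 and 3, at a level above 27.6% of the intron rows. Hhex, Lum and Prss2, all at or below the lower line, had differences of 0.30 (SE 0.18), 0.30 (SE 0.13) and 0.30 (SE 0.14). Without IDE-KD arrays 1 and 3 these were 0.09, 0.36 and 0.25. When IDE-KD arrays 1 and 3 were left out, 8 of the 15 were above 0. Mean levels of the delta, PP and epsilon cell list ran from 4.34 to 4.81 over IDE-KD arrays and from 4.12 to 4.71 over control arrays. They ran from 4.03 to 4.15 over IDE-KD arrays and from 3.64 to 4.14 over control arrays for fibroblast markers. For immune, endothelial and exocrine markers the ranges were 3.43 to 3.86 over IDE-KD arrays and 3.28 to 3.50 over control arrays. No array value of a marker is at 0 on this scale. Ins2, Nkx6-1, Rbfox3 and the muscle markers lay under the upper line, while G6pc2, Snap25, Syn1 and Tubb3 lay above it. Their part in the channel values was not tested.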

How the data were processed

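The deposited table holds log2 values per probe set, which per the submitters' processing notes involved RMA, oligo and limma, without versions. The build behind the probe sets was not given in those notes. Values were used as deposited, for 4 IDE-KD and 4 control arrays, and their number limits the precision. Of 29129 rows, 6923 array control rows and 64 rows with no placed transcript cluster were left out of the tests. Gene symbols came from the platform annotation, in which 19527 of the 22142 tested rows had 1 symbol and 2615 none. The 90 Kcn probe sets matched 89 of the 94 protein-coding Kcn genes of the RefSeq gene table, and the other 5 were not analysed here. limma 3.58.1 in R 4.3.3 (lmFit, eBayes) was fitted to all tested rows without covariates, with Benjamini-Hochberg adjustment over all of them and a threshold of 0.05. Exact two-sided permutation tests, counts and promoter counts were made with Python 3.11.15. No threshold on low values was applied before the fit. The fit of IDE-KD minus control was also run on simulated data with 200 changed rows among 22142. There it recovered 42.1% of 1.5-fold, 97.8% of 2-fold and 100% of 3-fold changes, and 95.8% of its intervals held the true value. The simulation had independent normal noise in each row and no differences between arrays, and the 200 changed rows ease the adjustment. Its shares therefore do not give the power of the comparison here, in which Ide, 1.53-fold lower, did not pass.

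The members and gene lists were chosen with earlier results of these data known. Genes were named by a rule: Kcnj11 with Abcc8, Ide and Gcg, a set of islet channel genes, each Kcn probe set above the 95th percentile intron line, the next on either side of it, the 10 Kcn probe sets with the smallest p, and the 2 genes of smallest p in each list. Genes of that islet set without a probe set are not analysed here. Kcnj3, Kcnj8, Kcnj9, Kcnk5, Kcnn1, Kcng3, Kcnrg, Amigo1, Lrrc38, Gnb5, Gng7, Nedd4l, Wnk1, the further marker genes and Kcnq1ot1 were named outside it, after their values were seen. Alternatives were other normalizations, array weights, a trended fit, 2 limits on low levels, the replicate block, each array left out in turn, other control lines and, chosen after seeing the data, IDE-KD arrays 1 and 3 left out together.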

Additional observations from a re-analysis of the deposited data

Results flagged for a closer look

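In 4 of 94 groups of 4 arrays, 1 array lay far from the other 3, where chance alone flags about 1 in 20 groups, or 4.7 of 94. Kcnh1 read 4.475 on control array 1, against 4.69 to 4.72 on the other control arrays, on the side away from the IDE-KD arrays. The delta cell hormone gene Sst read 4.999 on control array 4, against 5.64 to 5.66 on the other control arrays, and its difference without that array was -0.0151. The T cell gene Cd3e read 3.201 on IDE-KD array 2, against 3.40 to 3.44 on the other IDE-KD arrays. The alpha cell gene Irx1 read 6.362 on control array 3, against 6.48 to 6.50 on the other control arrays.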

How the results depend on the processing

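Of 47 named genes, 34 kept their direction under every one of the 16 alternative fits that held them (the fits limited to probe sets above the 95th percentile and the median intron row held 15 and 36 of the 47), and 0 Kcn genes passed the adjusted threshold under any of them. With the replicate block, 7 Kcn genes, all higher, had an unadjusted p under 0.05 in limma (5.66% of all probe sets) and no call changed. Same-numbered arrays correlated at 0.102, 0.129, 0.088 and 0.098, all above 0. IDE-KD arrays 1, 3 and 4 correlated better with control arrays 3, 1 and 2, at 0.158, 0.169 and 0.209. Whether the numbers pair the arrays was not settled by these values. Among the 7 genes above the 95th percentile intron line, 0 did not overlap, 0 had an unadjusted p under 0.05 in limma and the median was -0.0257. The line itself gave 2 genes at the 99th percentile and 34 at the median of all control rows. Without IDE-KD arrays 1 and 3 together, 14 genes did not overlap (6 higher; 16.9% of all), 9 had an unadjusted p under 0.05 (4 higher; 7.9% of all) and the median was -0.0319. Reversed there were Ckm (-0.1114), Col1a1 (-0.0945), Irx2 (0.053), Kcnj5 (-0.0342), Kcnk16 (-0.0354) and Kcnk3 (-0.0148). Gcg was -0.0092 with array medians subtracted and Kcnh2 0.0025 with quantile normalization. Under each of these 3 Kcn genes did not overlap (2.82% and 2.83% of all). Leaving out each array gave 4 to 8 genes without overlap, 3 to 7 at an unadjusted p under 0.05 and a median of 0.0397 to 0.1086. Differences that changed sign when 1 array was left out ran from -0.0227 to 0.1893 for Col1a1, -0.0297 to 0.0444 for Gcg, -0.151 to 0.013 for Kcnab2, -0.1172 to 0.0684 for Kcnd3, -0.0975 to 0.0725 for Kcnh2, -0.1315 to 0.0255 for Kcnh6, -0.076 to 0.1122 for Kcnk16, -0.2934 to 0.0283 for Kcnq1 and -0.0151 to 0.2055 for Sst. The cause of these shifts was not tested. Of the 90 genes, 50 read at or below the median intron row, where a change of the transcript may not be measurable.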
